A study of Mus musculus with 14 samples.

Results

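The genes of oxidative phosphorylation were followed in the colon of mice with and without glucocorticoid receptor (GR) in the intestinal epithelium, on water and during dextran sulfate sodium (DSS) colitis. Members were chosen by gene symbol alone: symbols that start with Nduf, Uqcr, Sdh followed by a, b, c or d, Cox4 to Cox8, or Atp5. The array carried 95 such genes, and 92 of them, of 15540 genes tested, passed the filter, a probe that the scanner software called well above background on 3 or more of 14 arrays. All 92 met it on every array. The other 3, Cox4i2, Cox7b2 and Cox8c, were not well above background on any array. Each gene was read from the probe with its highest mean signal. The symbols also take in assembly factors, which are not part of the finished enzymes and are counted apart below.

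Flox mice, the controls, are GR fl/fl and so carry loxP sites in both alleles of the GR gene without Cre. GR iKO mice are the same line with Cre driven by the Villin promoter, which acts in the intestinal epithelium, so that other cells of the colon keep GR. All mice were female, C57BL/6, 4 to 6 months old and on chow. They drank regular water (4 Flox and 4 GR iKO) or 2.5% DSS (3 Flox and 3 GR iKO) for 7 days. RNA came from colon tissue, in which fewer cells of a type and less RNA per cell cannot be told apart. Each array held RNA of 1 mouse.

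Oxidative phosphorylation takes place in the inner mitochondrial membrane. Complex I oxidises NADH and complex II (succinate dehydrogenase, also an enzyme of the citric acid cycle) oxidises succinate, and both pass electrons to ubiquinone. Complex III moves them on to cytochrome c, complex IV (cytochrome c oxidase) hands them to oxygen, and complex V (ATP synthase) uses the proton gradient to make ATP. Colonocytes are known for oxidising short-chain fatty acids this way. The proteins encoded by the mitochondrial genome are outside the symbols used here.

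Signals are given on a log2 scale relative to the 75th percentile of each array's processed intensities, which stands at 0. A member was called where limma gave an adjusted p under 0.05 over all 29523 probes tested. The 75th percentile of the raw signal was 707 to 1003 in the water groups, 262 to 675 in Flox DSS and 493 to 713 in GR iKO DSS. Spike-in transcripts moved the other way, to 10.66 to 10.85 (log2 intensity) in Flox DSS against 9.41 to 9.85 in Flox water. All changes below are therefore relative to the other probes of an array. With the arrays scaled to the spike-in transcripts instead, the median of all probes fell by 2.20 in Flox and by 0.88 in GR iKO, and Ndufb7 and Ndufs5, called higher in Flox below, were lower. Of 4 probes for the GR gene, Nr3c1, all 4 were lower in GR iKO on water, at 47.6% to 57.3% of Flox, with 1 of 4 called (adjusted p = 0.0365, limma). On DSS the 4 were at 55.2% to 75.7% of Flox, with none called (lowest adjusted p = 0.226, limma).

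Windows of RefSeq sequence (GRCm38.p6, 250 bases before to 50 after the annotated start) are shown for 4 members that mark the extremes of the results: the complex I and complex II members with the largest falls, and 2 complex IV isoforms that moved in opposite directions. Capitals mark matches on either strand to GCGCATGC (a core of NRF1 sites), CCGGAAG (a core of ETS family sites, which GABP reads), AAGATGGC (a core of YY1 sites) or TATAAA.

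Ndufa10: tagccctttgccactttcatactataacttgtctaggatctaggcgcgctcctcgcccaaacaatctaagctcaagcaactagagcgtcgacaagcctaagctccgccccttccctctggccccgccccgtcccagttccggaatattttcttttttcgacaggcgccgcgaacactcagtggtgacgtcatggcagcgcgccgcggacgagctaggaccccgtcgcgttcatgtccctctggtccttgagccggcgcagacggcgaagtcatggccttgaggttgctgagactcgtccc

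Sdhb: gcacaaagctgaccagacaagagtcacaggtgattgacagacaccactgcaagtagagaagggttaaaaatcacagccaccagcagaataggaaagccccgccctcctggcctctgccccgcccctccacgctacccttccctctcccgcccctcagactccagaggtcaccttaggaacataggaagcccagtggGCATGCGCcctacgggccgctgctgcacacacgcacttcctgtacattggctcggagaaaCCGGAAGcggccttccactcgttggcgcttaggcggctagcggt

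Cox7a1: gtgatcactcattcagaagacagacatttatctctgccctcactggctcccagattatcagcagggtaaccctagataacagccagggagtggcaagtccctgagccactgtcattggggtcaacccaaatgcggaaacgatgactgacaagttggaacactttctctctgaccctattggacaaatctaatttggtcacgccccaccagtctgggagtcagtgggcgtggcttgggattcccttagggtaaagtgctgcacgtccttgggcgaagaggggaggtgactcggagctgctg

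Cox8b: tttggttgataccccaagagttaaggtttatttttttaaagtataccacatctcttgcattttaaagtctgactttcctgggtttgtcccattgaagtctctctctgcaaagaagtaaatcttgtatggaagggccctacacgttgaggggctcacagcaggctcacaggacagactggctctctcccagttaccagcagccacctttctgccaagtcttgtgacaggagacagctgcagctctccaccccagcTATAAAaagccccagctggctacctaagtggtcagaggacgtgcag

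The Ndufa10 window lies at chr1:92473709-92474008 on the minus strand and the Sdhb window at chr4:140961021-140961320 on the plus strand. The Cox7a1 window is chr7:30183921-30184220 on the plus strand, and the Cox8b window is chr7:140900397-140900696 on the minus strand. Sdhb, the iron-sulfur subunit of complex II, held a match to GCGCATGC and one to CCGGAAG, and Cox8b held TATAAA. The windows of Ndufa10 and Cox7a1 held none of the 4 sets of letters. A window was found for 78 of the 92 members, and its gene counted as holding a motif if any of its windows did. GCGCATGC was in 12 of the 78 (15.4%) against 3.05% of all 27025 genes with a window. CCGGAAG was in 21 (26.9%, all genes 9.93%), AAGATGGC in 10 (12.8%, all genes 3.19%) and TATAAA in 8 (10.3%, all genes 15.7%). The windows of the members were also richer in G and C, with a median of 58.6% against 52.8% in all genes. The part of this in the motif shares was not tested. GCGCATGC or CCGGAAG stood in 8 of the 30 members with a window that were lower in both genotypes (26.7%) and in 10 of the 25 called in neither (40%). No matches overlapped in the 4 windows shown.

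On DSS, 78 of the 92 oxidative phosphorylation genes were below their water level in both genotypes, called or not. Taken singly, 78 were below it in Flox and 88 in GR iKO, where 54.4% and 51.2% of all probes tested were. In Flox mice 39 of 92 members (42.4%) were called lower, where 28.2% of all probes tested were, and 3 (3.26%) were called higher, where 24.4% of all probes were. In GR iKO mice 55 (59.8%) were called lower, against 22.5% of all probes, and none higher, against 22.0% of all. The median member changed by −0.39 in Flox and by −0.53 in GR iKO, which is 76.1% and 69.5% of the level on water, and the median probe by −0.09 and −0.02. A total of 36 members were called lower in both genotypes, 3 in Flox alone and 19 in GR iKO alone, but the difference between genotypes was called for none, as given below. The number of members whose DSS and water arrays did not overlap was near that of all probes, 55 (59.8%) against 57.4% in Flox and 46 (50%) against 46.3% in GR iKO.

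**Figure D1:**
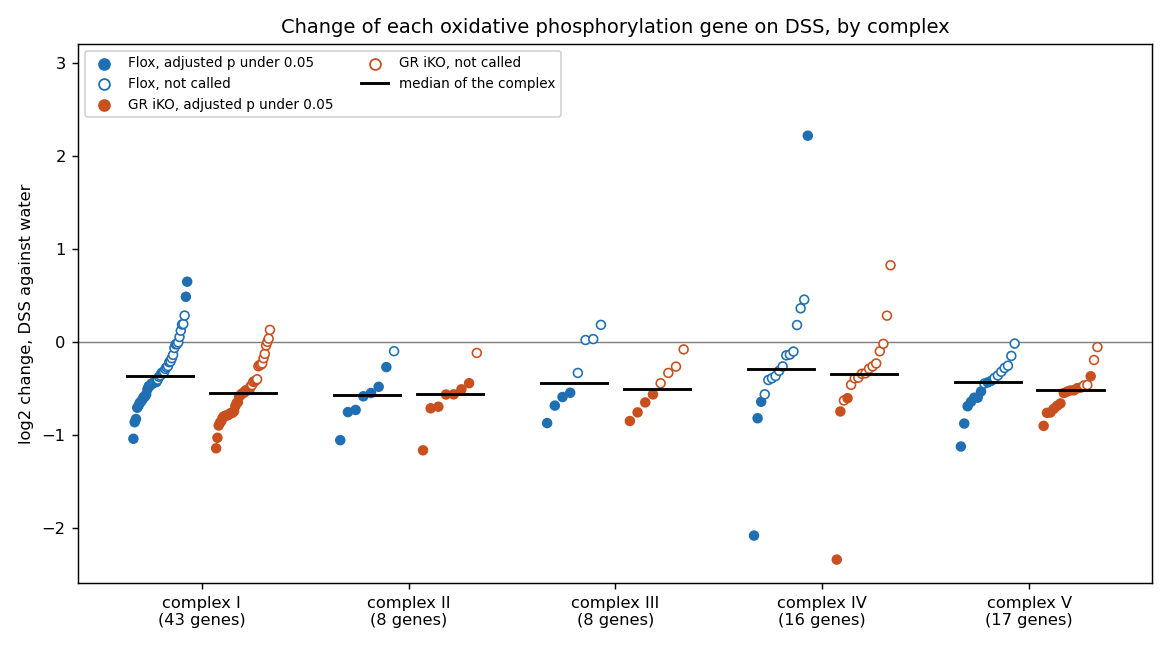
Log2 change on DSS against water (vertical axis) of each of the 92 members, by complex, in Flox (blue) and GR iKO (orange) mice, from limma. Filled points have an adjusted p under 0.05 and black bars are medians. All complex II and complex V members lie below 0 in both genotypes, whereas complex IV holds both the largest fall, Cox7a1, and the largest rise, Cox8b.

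The counts differed between complexes. They are to be read beside the shares of all probes called lower, 28.2% in Flox and 22.5% in GR iKO. In complex II 7 of 8 members were called lower in each genotype. In complex V the counts were 9 of 17 in Flox and 13 of 17 in GR iKO, and in complex I they were 16 and 28 of 43. Complex III had 4 of 8 in each. Complex IV stood at 3 of 16 in each, below the share of all probes in both genotypes. The members called there were mostly not its common subunits: of its 11 widely expressed subunits none was called in Flox and 1, Cox6b1, in GR iKO. The medians ran from 67.3% of the water level in complex II to 81.8% in complex IV in Flox, and from 67.4% in complex II to 78.8% in complex IV in GR iKO. No test of the difference between complexes was made.

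The 4 subunits of complex II all fell. They are Sdha, the flavoprotein that oxidises succinate, Sdhb, and the membrane anchors Sdhc and Sdhd, and all 4 were called in both genotypes. Sdhb signal was 4.61, 4.74, 4.79 and 4.85 on the Flox water arrays and 3.59, 3.51 and 3.96 on the Flox DSS arrays. In GR iKO it was 4.56, 4.59, 4.69 and 5.07 on water and 3.58, 3.24 and 3.86 on DSS. Every DSS array lay below every water array in both genotypes. The change was −1.06 ± 0.17 (SE) in Flox (adjusted p = 0.000294, limma) and −1.17 ± 0.17 in GR iKO (adjusted p = 0.00022, limma), or 47.96% and 44.5% of the water level. Sdha changed by −0.55 ± 0.11 and −0.57 ± 0.11, Sdhc by −0.76 ± 0.15 and −0.45 ± 0.15, and Sdhd by −0.73 ± 0.20 and −0.57 ± 0.20. The second Sdha probe gave larger falls than the first, −1.10 in Flox and −0.92 in GR iKO. In GR iKO the DSS and water arrays of Sdhc and Sdhd overlapped. Of the assembly factors, Sdhaf1 and Sdhaf4 fell in both genotypes (Sdhaf1 by 0.59 and 0.72, Sdhaf4 by 0.49 and 0.70), Sdhaf2 was called in Flox and not in GR iKO, and Sdhaf3 in GR iKO and not in Flox.

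In complex I, the core subunits, which carry the flavin and the iron-sulfur clusters, moved one way. Of 7 measured, 4 were called lower in Flox and 5 in GR iKO, and none higher. Of all probes, 28.2% were called lower in Flox and 22.5% in GR iKO. Ndufs8 changed by −0.83 ± 0.21 in Flox and −0.90 ± 0.21 in GR iKO, Ndufv2 by −0.65 ± 0.16 and −0.87 ± 0.16, Ndufs1 by −0.62 ± 0.14 and −0.80 ± 0.14, and Ndufv1, which binds NADH, by −0.47 ± 0.15 and −0.66 ± 0.15. Ndufs7 was called in GR iKO alone (−0.80 ± 0.16, against −0.21 ± 0.16 in Flox). Ndufs3 was called in neither, at −0.28 ± 0.17 in Flox and −0.43 ± 0.17 in GR iKO.

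The accessory subunits of complex I, which surround the core, were less uniform. Of 29, 10 were called lower and 2 higher in Flox, where 28.2% and 24.4% of all probes were. In GR iKO 19 were called lower, against 22.5% of all probes. The lowest was Ndufa10, with 2.89, 3.05, 2.91 and 3.00 on the Flox water arrays and 2.02, 1.80 and 1.93 on the Flox DSS arrays. The GR iKO arrays had 2.97, 2.92, 2.95 and 3.24 on water and 2.08, 1.33 and 2.20 on DSS. No DSS array reached a water array. Ndufa10 stood at 48.5% of its water level in Flox (adjusted p = 0.000413, limma) and 45.2% in GR iKO (adjusted p = 0.000317, limma). Ndufa6 changed by −0.87 ± 0.16 and −0.77 ± 0.16, and Ndufb5 by −0.71 ± 0.14 and −1.03 ± 0.16, the latter with 1 GR iKO DSS array missing.

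Both members called higher in complex I were accessory subunits, called in Flox and not in GR iKO. Ndufb7 signal was 5.43, 5.50, 5.61 and 5.53 on Flox water and 6.01, 5.96 and 6.52 on Flox DSS (change 0.64 ± 0.20, adjusted p = 0.0189, limma). On GR iKO water it was 5.55, 5.57, 5.59 and 5.61, and on DSS 5.40, 5.41 and 6.31, of which 2 arrays lay below and 1 above all the water arrays. Ndufs5 behaved alike in Flox, at 0.48 ± 0.17 (adjusted p = 0.0351, limma), and stood at 0.00 in GR iKO. Scaled to the spike-in transcripts, both genes were lower on DSS in Flox, by 1.47 and 1.63. The complex I assembly factors under these symbols were called lower in 2 of 7 in Flox (Ndufaf2 and Ndufaf7), near the 28.2% of all probes. In GR iKO 4 of 7 were called lower (also Ndufaf1 and Ndufaf3), against 22.5% of all probes.

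In complex III, Uqcrc2, a core protein, and Uqcrfs1, the Rieske iron-sulfur protein, fell in both genotypes. Uqcrc2 was 6.08, 6.14, 6.25 and 6.12 on Flox water and 5.16, 5.10 and 5.56 on Flox DSS. In GR iKO it was 5.94, 6.07, 6.04 and 6.23 on water and 5.03, 4.88 and 5.74 on DSS. The groups did not overlap in either genotype, although the replicate 4 DSS array (on slide 4 in both) was the closest to water in each. Its changes were −0.88 ± 0.19 and −0.85 ± 0.19, and those of Uqcrfs1 −0.69 ± 0.20 and −0.76 ± 0.20. Uqcrb was also called in both, Uqcrc1 in Flox alone (−0.60 ± 0.21) and Uqcr10 in GR iKO alone (−0.65 ± 0.21). A second Uqcrc1 probe, however, was called lower in both genotypes, at −0.73 in Flox and −0.60 in GR iKO. The small subunits Uqcrh, Uqcrq and Uqcr11 were called in neither, at 0.18, 0.02 and 0.03 in Flox and −0.34, −0.08 and −0.27 in GR iKO, although a second Uqcrh probe was called lower in GR iKO (−0.57).

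Complex IV was read through its nuclear subunits, many of which come as pairs of tissue isoforms. For 4 pairs the widely expressed form was called in neither genotype: Cox4i1 changed by −0.15 ± 0.18 in Flox and −0.34 ± 0.18 in GR iKO, Cox6a1 by 0.18 ± 0.19 and −0.10 ± 0.19, Cox7a2 by −0.14 ± 0.20 and −0.23 ± 0.20, and Cox8a by −0.11 ± 0.17 and −0.35 ± 0.17. Cox6a1 was called lower in Flox after quantile normalization (−0.39). Cox7b and Ndufa4, now counted as a complex IV subunit, were also called in neither genotype. Cox6b1, the widely expressed partner of Cox6b2, was called in GR iKO (−0.61 ± 0.18) and not in Flox (−0.41 ± 0.18). Cox7a2l, counted here as a factor of supercomplexes and not as a subunit, fell in both, by 0.65 and 0.75.

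The isoforms known from striated muscle and brown fat moved in different directions. Cox7a1 had the largest fall of all members. Its signal was 5.33, 4.94, 5.44 and 5.36 on Flox water and 2.65, 2.62 and 4.28 on Flox DSS. On GR iKO arrays it was 5.07, 5.20, 5.38 and 5.47 on water and 2.74, 2.57 and 3.50 on DSS. The groups lay apart, with replicate 4 again the highest DSS array in both genotypes. It stood at 23.6% of the water level in Flox (−2.09 ± 0.36, adjusted p = 0.00042, limma) and at 19.7% in GR iKO (−2.34 ± 0.36, adjusted p = 0.000274, limma).

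Cox8b rose in Flox. It was −1.16, −1.78, −1.92 and −1.93 on Flox water and 0.80, 0.58 and 0.18 on Flox DSS. In GR iKO it was −1.81, −1.35, −1.63 and −1.97 on water and −1.83, −0.91 and 0.13 on DSS. All Flox DSS arrays were above all water arrays, while the 3 GR iKO DSS arrays ran from inside the water range to near the Flox DSS arrays. The change was 2.21 ± 0.37 in Flox (adjusted p = 0.000349, limma), 4.64 times the water level, and 0.82 ± 0.37 in GR iKO (adjusted p = 0.0894, limma). Scaled to the spike-in transcripts it was 0.10 in Flox and not called. Cox6a2, a dim probe between −4.00 and −2.48, was called lower in Flox (−0.82 ± 0.31) and not in GR iKO (−0.63 ± 0.31), and Cox6b2 was called in neither.

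Markers of muscle and fat also differed between the DSS arrays. For their counts, 24.4% of all probes were called higher in Flox and 22.0% in GR iKO, and 28.2% and 22.5% lower. All 11 smooth muscle markers were called higher in Flox DSS (median 1.41) and 1 of 11 in GR iKO DSS (median 0.15). Their mean, relative to the 8 water arrays, was 1.33 to 1.61 in Flox DSS, −0.65 to 0.54 in GR iKO DSS and −0.31 to 0.34 on water. Of 10 skeletal muscle markers 3 were higher and 2 lower in Flox, with Ckm at 2.07 and Myh2 at −3.53, and in GR iKO 1 was higher and 2 lower. Their mean was −0.19 to 0.26 in Flox DSS, −1.05 to −0.28 in GR iKO DSS and −0.48 to 0.33 on water. Of 7 adipocyte markers 2 were higher in Flox and 3 lower in GR iKO, and their mean ran from 0.06 to 1.68 in Flox DSS and from −2.51 to 0.84 in GR iKO DSS. On Flox DSS replicates 1, 2 and 4 the adipocyte mean was 0.06, 1.68 and 1.35. The skeletal muscle mean was −0.14, −0.19 and 0.26 on them, and the smooth muscle mean 1.48, 1.33 and 1.61. On GR iKO DSS replicates 1, 3 and 4 the adipocyte mean was −2.20, 0.84 and −2.51. There the skeletal muscle mean was −1.05, −0.28 and −0.87, and the smooth muscle mean −0.65, 0.54 and 0.31. The part of these tissues in the Cox8b and Cox7a1 signals was not tested.

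**Figure D2:**
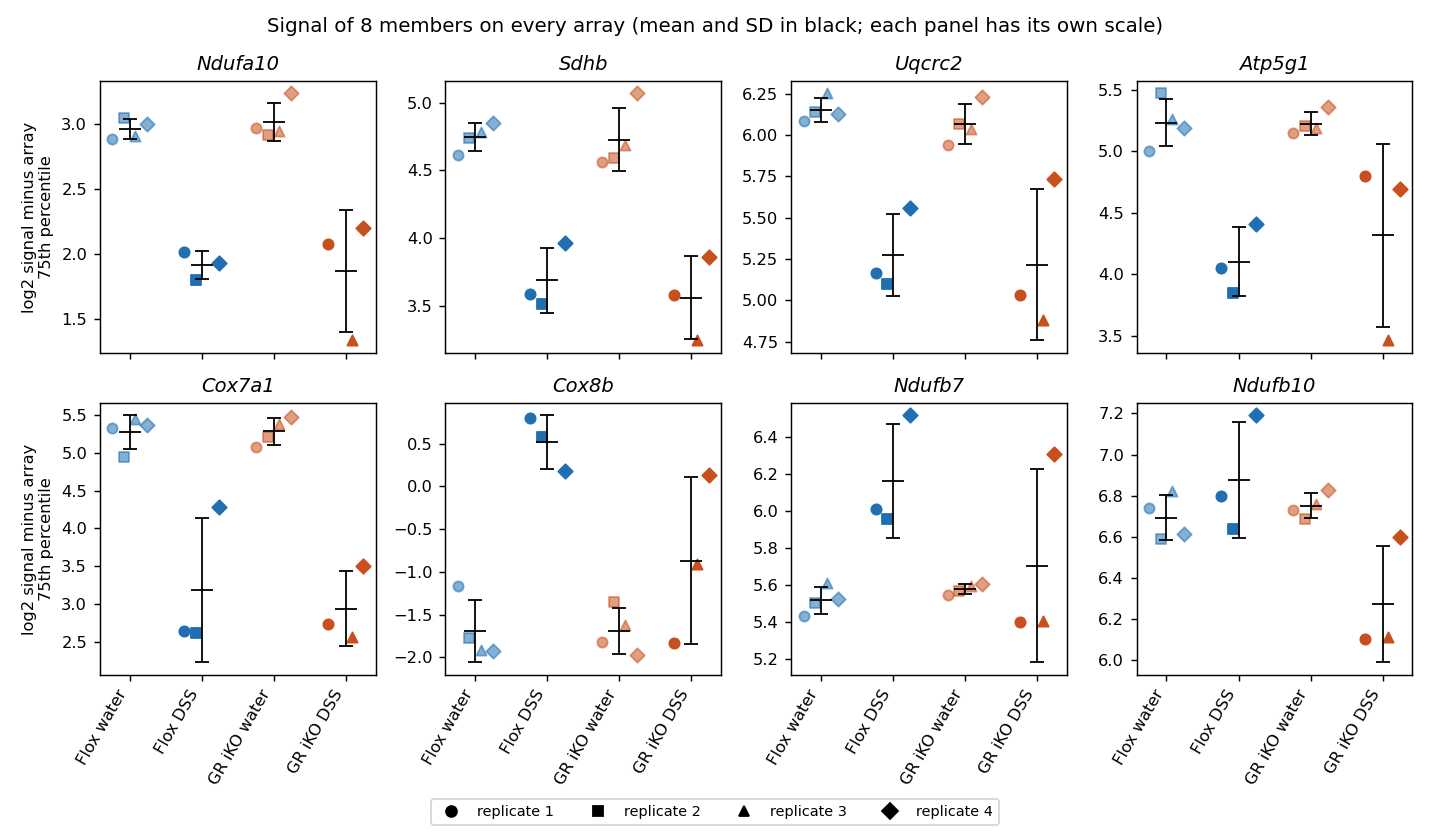
Log2 signal minus the array's 75th percentile (vertical axis, a scale for each panel) of 8 members on every array, by group (horizontal axis), with the mean and SD in black and a symbol for each replicate number. Ndufa10, Sdhb, Uqcrc2, Atp5g1 and Cox7a1 are lower on all 6 DSS arrays than on the water arrays of their genotype, and Cox8b and Ndufb7 are higher on all 3 Flox DSS arrays.

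ATP synthase fell in both its parts. For the counts that follow, 28.2% of all probes were called lower in Flox and 22.5% in GR iKO. In the F1 head, where ATP is made, 3 of 5 members were called lower in Flox and 4 of 5 in GR iKO: Atp5a1 changed by −0.65 ± 0.18 and −0.55 ± 0.18, Atp5c1 by −0.54 ± 0.16 and −0.69 ± 0.18, and Atp5d by −0.69 ± 0.16 and −0.52 ± 0.16. Atp5b, the catalytic beta subunit, was −0.36 ± 0.18 in Flox and not called, but its 2 other probes gave −0.97 each in Flox, both called. Atp5e was called in neither genotype. In the membrane part, stalk and associated proteins, 6 of 12 were called in Flox and 9 of 12 in GR iKO, with Atp5mpl at −0.88 ± 0.19 and −0.77 ± 0.19 and Atp5j2 at −0.60 ± 0.19 and −0.76 ± 0.19.

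Atp5g1, Atp5g2 and Atp5g3 encode the same mature c subunit of the proton-driven ring with different import sequences. Atp5g1 signal was 5.005, 5.47, 5.26 and 5.18 on Flox water and 4.05, 3.85 and 4.41 on Flox DSS. It was 5.15, 5.20, 5.19 and 5.36 on GR iKO water and 4.80, 3.46 and 4.69 on GR iKO DSS. Both DSS groups lay below their water groups, at 45.7% (adjusted p = 0.00387, limma) and 53.4% (adjusted p = 0.0162, limma). Atp5g2 was called in GR iKO (−0.54 ± 0.16) and not in Flox (−0.26 ± 0.16). A second Atp5g2 probe was called lower in both genotypes, at −0.50 in Flox and −0.78 in GR iKO. Atp5g3 stood at −0.02 ± 0.19 and −0.06 ± 0.19, not called in either. The difference between the 3 genes was not tested.

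Other probes of a gene mostly moved as the first one did. There were 26 further probes for 20 members, of which 4 had the opposite sign in Flox and none in GR iKO, and no pair was called in opposite directions. The call itself differed for 13 of the 26 in Flox and 7 in GR iKO. Ndufv3, called lower in Flox at −0.51, had 2 other probes at −0.02 and 0.13, not called.

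The spread between DSS arrays was shared by the whole gene set. Relative to the mean of the 8 water arrays, the median member stood at −0.51, −0.60 and −0.21 on Flox DSS replicates 1, 2 and 4, and at −0.48, −0.88 and −0.13 on GR iKO DSS replicates 1, 3 and 4. On water arrays it stood between −0.08 and 0.15. All 6 DSS arrays were thus below all 8 water arrays, with replicate 4 nearest to water in both genotypes. Replicate 4 of every group was on slide 4, and Flox DSS replicate 4 had the lowest 75th percentile of raw signal of all arrays, 262. The part of the slide or of signal strength in this order was not tested. Flox DSS replicate 4 was the highest of its group for 78 of 92 members, GR iKO DSS replicate 4 for 77 of the 90 measured on all 3 arrays, and GR iKO DSS replicate 3 the lowest for 78 of 90. The median SD within a group was 0.09 in Flox water, 0.12 in GR iKO water, 0.22 in Flox DSS and 0.42 in GR iKO DSS for the members, and 0.18, 0.17, 0.26 and 0.34 over all probes.

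**Figure D3:**
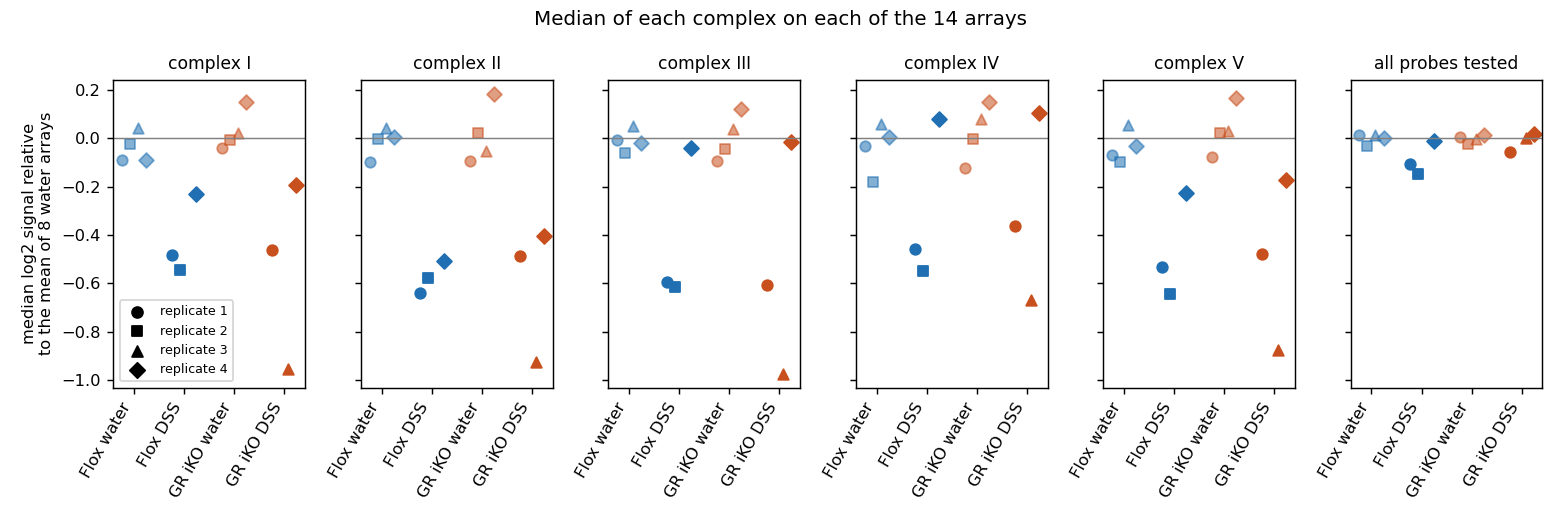
Median log2 signal of the members of each complex, and of all probes tested, on each of the 14 arrays relative to the mean of the 8 water arrays (vertical axis), by group (horizontal axis), with a symbol for each replicate number. Complex II lies between −0.93 and −0.40 on all 6 DSS arrays, whereas complex IV is at 0.08 and 0.11 on the replicate 4 DSS arrays, both on slide 4.

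The levels of the complexes differed within these arrays. On Flox DSS replicate 4 and GR iKO DSS replicate 4 complex II was at −0.51 and −0.40, complex I at −0.23 and −0.19, complex V at −0.23 and −0.17, complex III at −0.04 and −0.02 and complex IV at 0.08 and 0.11. On GR iKO DSS replicate 3 all 5 complexes were between −0.97 and −0.67. The mean of 16 colonic epithelium markers, relative to the water arrays, was −0.49, −0.77 and −0.06 on the Flox DSS arrays (replicates 1, 2 and 4) and −0.46, 0.01 and 0.18 on the GR iKO DSS arrays (replicates 1, 3 and 4). It was between −0.14 and 0.14 on water. In Flox the 3 arrays stood in the same order for these markers and for the members, and in GR iKO replicate 4 was highest for both, whereas replicate 3 was lowest for the members and replicate 1 for the markers. The part of epithelial loss in the changes of the members was not tested. The epithelium markers were called higher in 1 and lower in 6 of 16 in Flox (all probes 24.4% and 28.2%). In GR iKO 2 were called higher and 3 lower (all probes 22.0% and 22.5%).

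The marker means of neutrophils, macrophages and fibroblasts were higher on all DSS arrays than on water. For the counts of markers, 24.4% of all probes were called higher in Flox and 22.0% in GR iKO. The mean of the neutrophil markers was 3.90 to 4.84 above water in Flox DSS and 5.92 to 7.84 in GR iKO DSS, with 6 and 8 of 8 called higher. Macrophage markers were 0.91 to 1.79 and 1.37 to 2.31 above (9 and 11 of 12 called higher) and fibroblast markers 1.16 to 1.56 and 0.83 to 1.29 above (11 of 11 called higher in each). On water these means lay between −0.58 and 0.38. The part of cell make-up in the changes of the members was not tested.

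The arrays came from 4 slides, and each slide held several groups. Within slides the median member changed on DSS by −0.42, −0.49 and −0.14 in Flox (slides 1, 2 and 4) and by −0.93, −0.37 and −0.28 in GR iKO (slides 1, 3 and 4), negative in each. Leaving out 1 array changed the counts, given here in either direction. Without Flox DSS replicate 1 or 2, 26 and 27 of the 92 members were called in Flox, against 44.2% and 45.7% of all probes. The order of the genotypes, with more calls in GR iKO, was not kept in every setting. Without GR iKO DSS replicate 3, 57 were called in Flox (all probes 56.3%) and 33 in GR iKO (42.7%). With array quality weights there were 71 in Flox (65.1%) and 36 in GR iKO (39.1%), and with the 7 arrays of each genotype fitted alone 50 (53.5%) and 37 (37.8%). The counts were close, with Flox ahead, without GR iKO water replicate 4 (42 and 38, all probes 51.5% and 39.1%). So they were after the normexp background correction (60 and 59, all probes 55.9% and 39.6%). Scaled to the spike-in transcripts they were 91 and 89 (all probes 87.1% and 53.1%). Over the fits without 1 array, the median change in GR iKO ran from −0.68 without GR iKO DSS replicate 4 to −0.30 without replicate 3, and that in Flox from −0.53 to −0.30. With array quality weights the medians were −0.52 in Flox and −0.39 in GR iKO.

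The next comparison asked whether loss of epithelial GR changed these genes. On water none of the 92 members was called, where 0.0102% of all probes were. At an unadjusted p under 0.05 there was 1 member, Ndufb9, against 3.04% of all probes, and the groups did not overlap for 1, Ndufs3, against 2.26%. The median member was at 0.05, or 104% of Flox. The lowest p-values belonged to Ndufb9 (0.17 ± 0.07) and Ndufs7 (0.16 ± 0.07), both with an adjusted p of 1.00 (limma).

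On DSS no member was called between GR iKO and Flox, and 0% of all probes were. At an unadjusted p under 0.05 there were 2, Cox8b and Ndufb10, against 16.2% of all probes, and 4 did not overlap (4.35%) against 22.8%. Cox8b was at 38.3% of Flox (−1.39 ± 0.49, adjusted p = 0.261, limma) and Ndufb10, an accessory subunit of complex I, at 65.8% (−0.60 ± 0.24, adjusted p = 0.294, limma). Ndufb10 signal was 6.80, 6.64 and 7.19 on Flox DSS and 6.10, 6.12 and 6.599 on GR iKO DSS, against 6.59 to 6.83 on the 8 water arrays. The 3 GR iKO DSS arrays lay below the 3 Flox DSS arrays. With the spread estimated over all 14 arrays these 2 of the 92 members were called (adjusted p = 0.0389 and 0.0331, limma), where 13.2% of all probes were. Within slide 1 the median member was 0.42 lower in GR iKO than in Flox, and within slide 4 it differed by −0.01.

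The interaction asked whether DSS acted differently in the 2 genotypes. None of the 92 members was called, where 0.112% of all probes were, and 5 had an unadjusted p under 0.05, against 19.2% of all probes. The median interaction was −0.15, but 0.07 without GR iKO DSS replicate 3, −0.32 without GR iKO DSS replicate 4 and 0.08 with array quality weights. The lowest adjusted p values belonged to Ndufb10 (−0.66 ± 0.22, adjusted p = 0.134, limma) and Cox8b (−1.39 ± 0.52, adjusted p = 0.177, limma). The larger number of calls in GR iKO is thus not matched by a difference that passed the test. Without GR iKO DSS replicate 4, Ndufs7, Ndufaf1 and Ndufaf3 were called, each with a larger fall in GR iKO (−0.81, −0.73 and −0.85), where 1.1% of all probes were called. Scaled to the spike-in transcripts 29 members were called with a smaller fall in GR iKO, where 48.9% of all probes were called and the median of all probes was itself at 1.28.

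The rest of energy metabolism was read from lists of genes outside these symbols. For the counts that follow, 28.2% of all probes were called lower in Flox and 22.5% in GR iKO, and 24.4% and 22.0% higher. Of 13 other respiratory chain genes 7 were called lower in Flox and 8 in GR iKO, and none higher. Cyc1, the cytochrome c1 of complex III, changed by −1.22 ± 0.21 and −1.08 ± 0.21, and Coq9, which serves ubiquinone synthesis, by −1.22 ± 0.12 and −1.43 ± 0.12. Coq8a fell by 1.32 and 2.42. Assembly factors fell in part. For complex I, 5 of 8 were called lower in Flox and 4 of 8 in GR iKO. For complexes III to V, 11 of 26 were called lower in Flox and 13 in GR iKO. Of the same 26, 2 (Cox16 and Ttc19) were called higher in Flox and 1 (Cox16) in GR iKO. Cox10, needed to make heme A, stood at −1.02 and −1.10, and Dmac2 at −1.40 and −1.44.

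**Figure D4:**
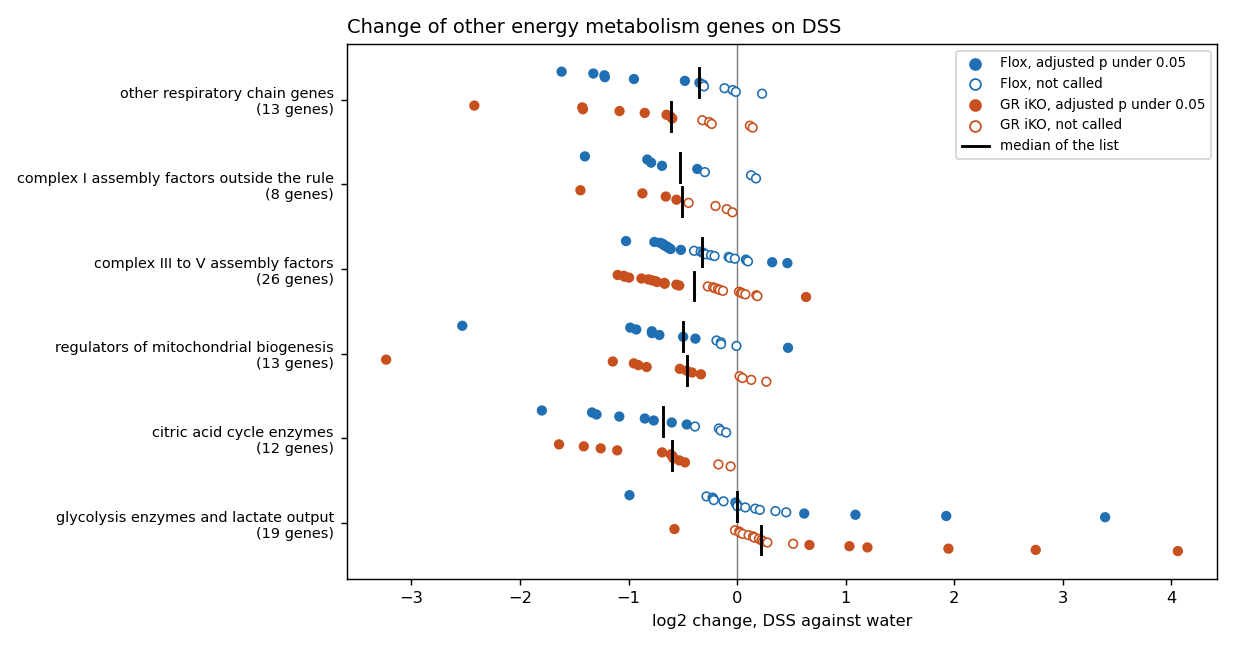
Log2 change on DSS against water (horizontal axis) of each gene in 6 lists of energy metabolism genes outside the 92 members, in Flox (blue) and GR iKO (orange) mice. Filled points have an adjusted p under 0.05 (limma) and black bars are medians. Citric acid cycle enzymes lie below 0 throughout, whereas most called glycolysis genes lie above 0. The shares of all probes called higher were 24.4% in Flox and 22.0% in GR iKO.

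Of 13 regulators of mitochondrial biogenesis 8 were called lower in Flox and 9 in GR iKO. Ppargc1a, the coactivator PGC-1alpha, fell by 2.53 ± 0.46 and 3.23 ± 0.46, and Tfam, which packages mitochondrial DNA, by 0.98 ± 0.14 and 0.83 ± 0.14. The factors that read the motifs above were at −0.15 ± 0.14 and 0.05 ± 0.14 (Nrf1) and at −0.19 ± 0.10 and −0.33 ± 0.10 (Gabpa, called in GR iKO alone). Pprc1, a relative of Ppargc1a, was called higher in Flox (0.47 ± 0.17).

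Citric acid cycle enzymes fell in 8 of 12 in Flox and 10 of 12 in GR iKO, with medians of −0.69 and −0.60. Idh3a, a subunit of isocitrate dehydrogenase, changed by −1.80 ± 0.25 and −1.64 ± 0.25 and Suclg2 by −1.34 ± 0.13 and −1.26 ± 0.13. Glycolysis genes did not follow them: of 19, 4 were called higher and 1 lower in Flox, and 6 higher and 1 lower in GR iKO, with medians of 0.00 and 0.22. The shares of all probes called higher were 24.4% in Flox and 22.0% in GR iKO, so the count in Flox was not above that of all probes. Pfkfb3, which makes the activator of phosphofructokinase, rose by 3.39 ± 0.27 and 4.06 ± 0.27 and Slc16a3, the lactate exporter MCT4, by 1.93 ± 0.51 and 2.75 ± 0.51. Hexokinase 2 (Hk2) and the glucose transporter Slc2a1 were called in GR iKO (1.95 and 1.20) and not in Flox (0.45 and 0.21). Pfkfb4 was the gene called lower, at −0.99 and −0.58.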

How the data were processed

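Colonic RNA of 14 mice was hybridised to Agilent 1-colour whole mouse genome arrays (500 ng RNA, Cy3), 1 mouse per array. The authors deposited scanner output of Feature Extraction 12.0.0.7, per the file headers: intensities on a linear scale for 45018 spots, background-subtracted and detrended but not scaled between arrays. They also deposited log2 values of the same arrays with equal quartiles on every array, whose processing is not given in the sources used here (the submitters' processing notes name Partek 6.6); these served as an alternative. The number of arrays limits the precision. The study's own microarray statistics were not used here.

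After removal of 1639 control spots, flagged spots were set to missing and a probe's spots averaged. Values were log2 intensity minus the array's 75th percentile. Probes well above background on at least 3 of 14 arrays (29523) were tested with limma 3.58.1 in R 4.3.3, adjusted by Benjamini-Hochberg. DSS effects and the interaction were fitted on all 14 arrays, the genotype effect on the 8 water or 6 DSS arrays. Ndufb5 and Atp5c1 lacked a value on 1 array each and were fitted on the rest. Groups came from the sample labels. Symbols came from RefSeq accessions matched to a GRCm38.p6 table (28223 probes), promoter windows from RefSeq. The array annotation is of another build, so no probe coordinates are given.

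The members and all lists were chosen with earlier results of these data known. Named members are the 3 called members with the largest change per complex, direction and genotype, the tissue isoforms, the core, complex II and F1 subunits, and those lowest in p between genotypes, other members being named after their values were seen. A gene under this rule is not reported here by name. The fit was tested on simulated data. Alternatives were quantile normalization, the deposited values, spike-in scaling, normexp background (on median signals, offset 50), no filter or all 14 arrays well above background, the mean of a gene's probes, array quality weights, separate weights for water and DSS, slide or replicate number as a block, the arrays of 1 genotype alone, a spread shared by 14 arrays, and leaving out each array.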

Additional observations from a re-analysis of the deposited data

Results flagged for a closer look

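Of 106 groups of 4 water arrays examined (46 named members and 7 medians in each genotype), 6 had an array far from the other 3, and chance flags about 1 in 20 such groups. Atp5g2 was at 5.92 on Flox water replicate 3, against 5.72 to 5.75 on the others. Ndufb9 was at 7.12 on the same array, against 6.92 to 6.95. Ndufs3 was at 4.46 on Flox water replicate 1, against 4.52 to 4.53. Cox7b was at 5.39 on GR iKO water replicate 1, against 5.61 to 5.64. Ndufa10 was at 3.24 on GR iKO water replicate 4, against 2.92 to 2.97. Ndufa4 was at 4.82 on GR iKO water replicate 2, against 5.12 to 5.15. Groups of 3 were not examined.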

How the results depend on the processing

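With spike-in scaling, 91 members were called in Flox and 89 in GR iKO, all lower (all probes 87.1% and 53.1%), with medians of −2.51 and −1.39, the genotype median was −0.083 on water and 1.03 on DSS, and 29 members had an interaction (all probes 48.9%). Array quality weights gave 71 in Flox and 36 in GR iKO (all probes 65.1% and 39.1%), and the spread shared by 14 arrays 2 between genotypes on DSS (all probes 13.2%). Leaving out 1 array at a time gave 26 to 57 members in Flox, 33 to 71 in GR iKO and 0 to 3 for the interaction. Of all probes, 44.2% were called in the Flox fit with 26 and 56.3% in that with 57. The shares were 42.7% and 40.8% in the GR iKO fits with 33 and 71, and 1.1% in the interaction fit with 3. The other alternatives kept the counts within 1.5 times. The replicate block gave 49 in Flox and 55 in GR iKO (all probes 51.6% and 42.7%), and no members between genotypes or for the interaction. Replicate numbers do not pair the samples, and what the mice of a pair shared is not given in the labels: deviations of same-numbered arrays correlated over 0.1 in 9 of 18 pairs (−0.23 to 0.31), and 6 of 14 arrays correlated best with their own number.

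Under spike-in scaling some of the 46 named members turned to lower in Flox. They were Ndufb7 (−1.47 in Flox, −0.73 in GR iKO), Ndufs5 (−1.63), Ndufb10 (−1.93), Ndufa4 (−1.75), Cox6b2 (−1.66) and Cox6a1 (−1.93). Over all 92 members, 91 were called lower in Flox under this scaling, so others that stood above 0 turned as well. Cox6a1 was also lower with quantile normalization (−0.39) and the deposited values (−0.40). Of the members called, 21 of 42 in Flox and 31 of 55 in GR iKO were called under every alternative, among them Sdha, Sdhb, Ndufa10 and Cox7a1 in both. Signals at 3 or 4 arrays a group limit what could be called between genotypes; the cause of the differences between settings was not tested.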
